A study of Bos taurus with 6 samples.

Results

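Antisense loci are the places where an assembled, spliced transcript lies on the strand opposite to the exons of an annotated gene, here called the sense gene. They were taken from the transcripts that StringTie assembled from longissimus dorsi samples, 3 from Shandong black cattle (B1 to B3) and 3 from Luxi cattle (L1 to L3), 1 library for each animal. All 6 animals were healthy and 18 months old, the labels name no treatment, and each breed came from its own supplier. Members were chosen by the deposited transcript models and their presence in a library, that is by detection and not by a difference between the breeds. A transcript was a member if it carried no reference gene name, had at least 2 exons, overlapped exons of a reference transcript on the other strand and overlapped none on its own strand. Of 88068 assembled transcripts with 2 or more exons in the 6 libraries, 14171 met this rule. Same-strand overlaps were merged into 6357 loci, of which 3763 were assembled in a single animal and 2594 in at least 2. These 2594 loci, opposite 2202 sense genes, are described here. Each is named after the sense gene with which it shares most exon bases, so that as-TNNI1 is the locus opposite TNNI1, and a number after the name separates several loci of 1 gene.

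Natural antisense RNAs are made when the strand opposite to a gene is transcribed as well, often from a promoter near the start of the gene, from a neighbouring gene that runs past its end, or from within the gene. Some are spliced and polyadenylated, and some are known to act on the sense gene through transcription, chromatin or RNA pairing, as at the HOX clusters. Spliced introns carry their strand with them, because the bases at the start and the end of an intron differ. An RNA that is transcribed from the opposite strand is therefore normally spliced at sites of its own, whereas the introns of the sense gene read on the other strand have the sense gene's sites in reverse. The bases at the intron ends were not read here, since no genome of the files' build was used, and no sequence is shown for the same reason.

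The libraries rested on 14.1 to 14.6 gigabases of aligned sequence in Shandong black cattle and 17.52 to 17.99 in Luxi cattle. The lowest coverage of any antisense transcript was 2.5 reads per base in every library, which was an FPKM of 0.171 to 0.178 in Shandong black and 0.139 to 0.143 in Luxi cattle, so that a value of 0 means only that nothing was assembled. Muscle markers (ACTA1, CKM, DES and others, 8 of 8 listed) summed to between 23031 and 73408 FPKM, and the lowest sum was that of L1, which also had the fewest antisense loci although it was the deepest library. Markers of fat cells, 6 of 6 listed, summed to 116 to 180 FPKM in Shandong black and 3.09 to 19.2 in Luxi cattle, with LEP at 0 in at least 1 library. Fibroblast markers, 4 of 4 listed, summed to 102 to 147 and 346 to 458 FPKM, and endothelial markers, 3 of 4 listed, to 14.5 to 15.1 and 19.1 to 57.7. Blood markers stayed at 1.28 to 2.37 FPKM and macrophage markers at 3.50 to 8.80. XIST, the RNA made from an inactive X chromosome, stood at 10.7, 4.83 and 14.04 FPKM in B1, B2 and B3 and at 0, 0 and 0.207 in L1, L2 and L3, so sex, supplier, depth and breed cannot be told apart. The part of these differences in the results was not tested, and in whole tissue fewer cells of a type and less RNA per cell cannot be told apart.

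Most antisense loci had exactly the introns of the annotated gene that they faced. In 2126 of the 2594 loci (82.0%), every intron had the same start and end as an intron of a reference transcript on the opposite strand, and these are called mirrored loci. In 259 loci (9.98%) some introns did, called mixed loci, and in 209 (8.06%) none did, called loci with introns of their own. This division was made after the files had been looked at. Mirrored loci lay inside the limits of the sense gene in 87.4% of cases, their exons overlapped it over a median of 100% of their length, and their sense genes had a median of 15.4 FPKM. Loci with introns of their own lay inside the sense gene in 25.4% of cases. They were arranged head to head with it, across its start, in 32.1% and tail to tail, across its end, in 36.4%, and a median of 20.5% of their exon length lay on the sense gene, whose median level was 1.94 FPKM. In 194 of these 209 loci, an intron of their own was assembled with the same ends in at least 2 animals, and in 9 it was assembled in all 6. Of the mixed loci, 79 of 259 had such a repeated intron of their own. With assembled transcripts counted too, every intron was one of the other strand at 65 of these 259.

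These classes depend on the reference transcripts that could be used. A gene whose reference transcripts were not analysed here is not recognised, and its introns then count as the locus's own. At 111 mixed loci or loci with introns of their own, 80 of them of the latter class, the nearest protein-coding gene with a name on at least 1 side of the sense gene in the later ARS-UCD2.0 gene table was among those not analysed here. Loci whose introns were mostly their own were therefore not described singly where they lay beside such a gene, unless the sense gene was on a gene list, nor where they had more than 8 exons, which was so for 18 of the 209.

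**Figure D1:**
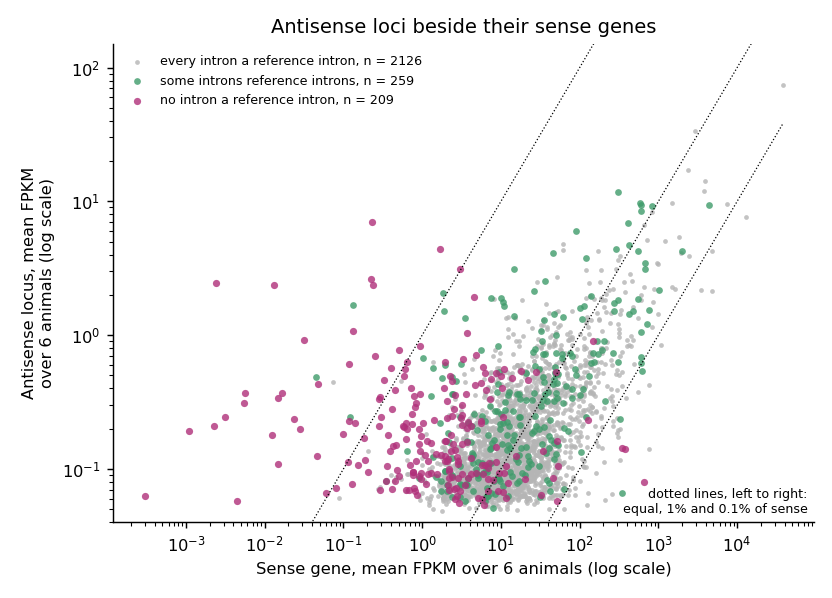
Mean FPKM over the 6 animals of each antisense locus (vertical axis, log scale) against that of its sense gene (horizontal axis, log scale), coloured by how many of its introns were introns of a reference transcript on the other strand. The 2126 mirrored loci lie mostly near or below the line of 1% at high sense levels and rise with the sense gene, whereas the 209 loci with introns of their own spread over all sense levels.

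The share of genes with an antisense locus rose with the level of the gene. Among genes with a reference transcript of 2 or more exons, all 21 with a mean of at least 1000 FPKM had a locus, as did 202 of 220 between 100 and 1000 FPKM, 1034 of 1873 between 10 and 100, 830 of 6774 between 1 and 10, and 104 of 5320 below 1. Mirrored loci rose from 0.357% of the genes below 1 FPKM to 76.8% of those between 100 and 1000 and 85.7% of those above, and mixed loci from 0.113% to 17.7% and 14.3%. Loci with introns of their own stood opposite 1.49% of the genes below 1 FPKM, 1.37% between 1 and 10, 1.12% between 10 and 100, 1.82% between 100 and 1000, and none of the 21 highest. Over the loci assembled in all 6 animals, the log2 levels of antisense and sense had a Pearson correlation of 0.65 across 303 mirrored loci, 0.46 across 85 mixed loci and -0.32 across 14 loci with introns of their own. These loci share libraries and depth, and the correlations are descriptions only.

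The locus with the highest level lay opposite ACTA1, the skeletal muscle actin, on chromosome 28 from 1400443 to 1403286, plus strand (ARS-UCD1.2, as for all positions here). Its 6 introns were those of ACTA1, and 1488 of its 1572 exon bases lay on ACTA1 exons. Its FPKM was 72.6, 94.6 and 98.5 in B1, B2 and B3 and 13.5, 84.8 and 80.7 in L1, L2 and L3, beside 32188, 41650 and 38234 and 12237, 54910 and 47110 for ACTA1 itself. The breeds overlapped, and L1 was the lowest library for both strands. The locus opposite TPM2, which encodes beta-tropomyosin, had 24.2, 49.3 and 41.5 FPKM in Shandong black and 14.1, 35.4 and 38.1 in Luxi cattle, again with L1 lowest and the breeds overlapping. The other loci among the 10 with the highest means, from 9.35 to 17.1 FPKM, lay opposite HSPB1, TNNC1, CKM, TNNI1, MYH7, DES, MB and ALDOA, which encode a small heat shock protein, 2 troponin subunits, creatine kinase, slow myosin, desmin, myoglobin and aldolase. TNNI1, MYH7 and ALDOA had mixed loci and the other 7 of these 10 had mirrored ones.

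Relative to the sense gene, mirrored loci had lower values in Luxi cattle in each class of sense gene level. For the 16 mirrored loci found in all animals whose sense gene had at least 1000 FPKM, the median antisense level was 0.295, 0.383 and 0.236% of the sense level in B1, B2 and B3 and 0.108, 0.133 and 0.166% in L1, L2 and L3. For the 98 loci with sense genes of 100 to 1000 FPKM it was 0.575, 0.619 and 0.569% against 0.357, 0.356 and 0.410%. For the 168 loci of 10 to 100 FPKM it was 2.06, 2.37 and 2.02% against 1.32, 1.28 and 1.498%, and for the 20 loci of 1 to 10 FPKM 7.54, 8.97 and 8.19% against 6.26, 5.20 and 5.89%. Every Luxi animal was below every Shandong black animal in each of these 4 classes. Over all 303 loci the median was 1.42% ± 0.152 (SD, n = 3) in Shandong black and 0.887% ± 0.0494 (SD, n = 3) in Luxi cattle, 0.624 times as much, with an exact two-sided permutation p of 0.1, the smallest that 3 against 3 animals can give. The percentage fell as the sense gene rose, but a locus had to pass the assembly limit in every animal to be included, so low percentages could not be seen at weak sense genes. The Luxi libraries were the deeper ones, and the part of depth and library preparation in this difference was not tested.

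**Figure D2:**
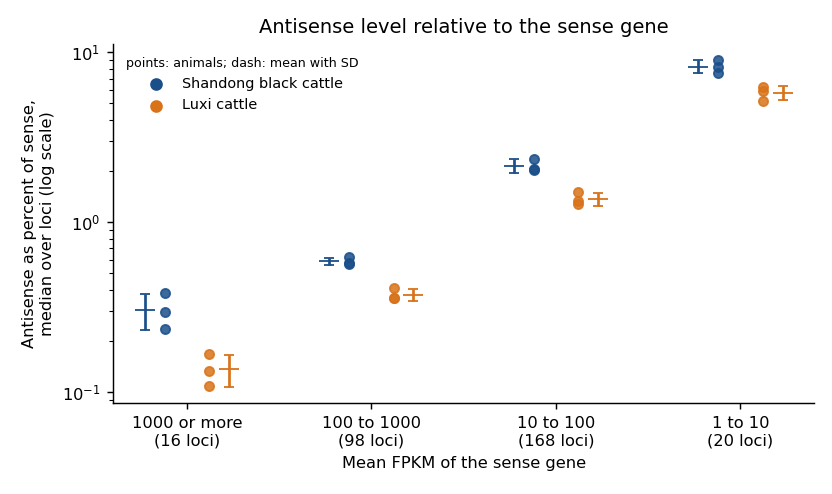
Median antisense level as a percentage of the sense level (vertical axis, log scale) over mirrored loci found in all 6 animals, by the mean FPKM of the sense gene (horizontal axis). Points are animals, and the dash with its bar is the mean with the SD of 3 animals. The 3 Luxi animals lie below the 3 Shandong black animals in each class.

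The summed levels of mirrored loci and of loci with introns of their own differed in opposite directions between the breeds. Mirrored loci summed to 865, 967 and 963 FPKM in B1, B2 and B3 and to 376, 724 and 812 in L1, L2 and L3, lower in every Luxi animal. Loci with introns of their own summed to 49.2, 59.7 and 52.2 FPKM in Shandong black and to 91.5, 94.4 and 86.8 in Luxi cattle, higher in every Luxi animal. They numbered 83, 104 and 88 in Shandong black and 118, 115 and 110 in Luxi cattle. Both sums had an exact two-sided permutation p of 0.1, and so had the number of loci with introns of their own. The sum of the latter kept its direction without its highest locus (51.7 against 79.0 FPKM as means of the breeds), without the loci beside genes not analysed here (31.5 against 56.5) and with loci of up to 8 exons only (42.0 against 72.9), each with an exact permutation p of 0.1. All 2594 loci together summed to 1153, 1296 and 1250 FPKM in Shandong black and 612, 1001 and 1108 in Luxi cattle (mean difference -326, exact permutation p of 0.1). The number assembled was 1481, 1582 and 1618 in Shandong black and 1116, 1492 and 1554 in Luxi cattle, which overlap (mean difference -173, exact permutation p of 0.3). Without L1 the differences were -37.3 loci and -178.5 FPKM, so the number of loci rested largely on L1 and the sum only in part. Depth differed between the breeds, and more reads allow weaker transcripts to be assembled.

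Of the 2594 loci, 376 had a mean of at least 0.5 FPKM over the 6 animals and were tested between the breeds in 1 limma fit with 11071 genes on log2(FPKM + 1). The locus just inside this limit had 0.5 FPKM and the one just outside 0.498. Fold changes are given as Luxi minus Shandong black on that scale, which understates the change of low values. Calls required an adjusted p-value below 0.05 together with a log2 fold change of 1 or more in either direction, and 2.18% of the 11447 features tested were called, 0.961% of them as lower in Luxi cattle. Of the 376 loci, 17 (4.52%) were called, all lower in Luxi cattle. Of these, 10 were mirrored and 7 mixed, and none of the 29 tested loci with introns of their own was called. The breeds did not overlap at 106 loci (28.2%), against 27.4% of all features, of which 91 were lower and 15 higher in Luxi cattle. The median log2 fold change was -0.19 for the loci and 0.12 for the genes, -0.21 for the 262 mirrored, -0.21 for the 85 mixed and 0.42 for the 29 with introns of their own. A locus that was assembled in 1 breed only and passed the limit had to differ, so these counts describe the loci that were tested and not all 2594.

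The number of called loci rested on single animals. It was 3 without B1, 4 without B3, 5 without L2, 12 without L3 and 13 without B2. Without L1 it was 21, of which 7 were higher in Luxi cattle. Dividing each library's antisense values by its median antisense to sense ratio, an alternative chosen after the data had been seen, gave 12 calls, 8 lower and 4 higher, of which 8 were among the 17, and moved the median of the loci to 0.15. That median had to rise, since the ratio was lower in every Luxi library. The calls lost included as-ACTN2, as-ANKRD1, as-MYL12A, as-VGLL2.1 and as-PPP1R27. Only as-TNNI1, as-ANKRD2 and as-BDH1 were called in all 6 fits that left out an animal. Neither as-ANKRD2 nor as-BDH1 was assembled in any Luxi animal, so both passed the limit through Shandong black cattle alone, and their calls in those fits are no sign of stability. The Luxi means of as-HSPB7, as-CRYAB, as-ANKRD1 and as-MYL12A, 0.354, 0.478, 0.255 and 0.381 FPKM, were below the limit as well. These loci also passed it through Shandong black cattle.

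Of the 17 called loci, 7 lay opposite genes on the list of the sarcomere and the Z-disc, the plate that anchors the thin filaments. TNNI1 encodes the troponin I of slow fibres, the inhibitory subunit on the thin filament. The locus as-TNNI1, on chromosome 16 from 80895072 to 80907736, minus strand, had 22.5, 22.8 and 18.7 FPKM in B1, B2 and B3 and 1.87, 1.95 and 2.96 in L1, L2 and L3. It fell by 2.79 on the log2 scale (SE 0.204, adjusted p = 0.00459, limma), and TNNI1 itself, at 438, 590 and 490 FPKM against 88.3, 58.5 and 190, fell by 2.32 (SE 0.457, adjusted p = 0.0487). Of its 8 introns 7 were those of TNNI1. The remaining intron was assembled in all 6 animals, but it was also one of an assembled transcript on the other strand. A gene beside TNNI1 was among those not analysed here.

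TNNC1 encodes the calcium-binding troponin of slow and heart muscle. The mirrored locus as-TNNC1, on chromosome 22 from 48434846 to 48437865, minus strand, had 23.8, 23.6 and 25.0 FPKM in Shandong black and 3.68, 1.63 and 6.62 in Luxi cattle. The groups were far apart, and the locus fell by 2.47 (SE 0.364, adjusted p = 0.0239, limma). TNNC1 had 5062, 5050 and 4999 FPKM against 3585, 932 and 3798, and its change of -1.11 (SE 0.658, adjusted p = 0.383) was not called. The difference between the 2 changes, -1.36 (SE 0.340, adjusted p = 0.0676), did not pass the threshold.

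MYH7, the slow myosin heavy chain, faced the locus with the most exons among the called ones, up to 40. The locus as-MYH7, on chromosome 10 from 21488762 to 21541436, minus strand, also ran across exons of MYH6, the neighbouring heart myosin gene. Of its 57 introns 10 were no reference introns. With assembled transcripts counted too, 52 of the 57 were introns of the other strand. It had 15.1, 18.04 and 17.8 FPKM in Shandong black and 4.29, 1.2 and 2.29 in Luxi cattle, and fell by 2.41 (SE 0.316, adjusted p = 0.0197, limma). The sense level of MYH7, 280, 2097 and 235 FPKM against 120, 479 and 289, varied by more within the breeds than between them. The locus opposite MYL2, the slow regulatory light chain, is named for its place among the 5 largest falls with breeds apart. It had 13.3, 10.6 and 13.3 FPKM against 1.54, 0.951 and 5.88 but missed the threshold (log2 fold change -2.04, SE 0.440, adjusted p = 0.0608, limma). The locus opposite MYL3, the slow essential light chain, had 0.227, 1.23 and 0.456 FPKM against 8.82, 0.631 and 1.94 and was not called (log2 fold change 1.19, SE 0.604, adjusted p = 0.316, limma). Opposite TNNT1, the slow troponin T, the values were 11.7, 8.42 and 6.03 FPKM against 5.55, 1.4 and 7.02, also not called (-0.91, SE 0.460, adjusted p = 0.312, limma). At both of these loci the breeds overlapped.

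CSRP3, ANKRD2 and ANKRD1 encode proteins of the Z-disc and the titin filament that are known to respond to mechanical load. The mirrored locus as-CSRP3, on chromosome 29 from 25744176 to 25765328, minus strand, had 11.7, 11.02 and 7.11 FPKM in Shandong black and 0.155, 0.780 and 1.70 in Luxi cattle. It fell by 2.60 (SE 0.333, adjusted p = 0.0189, limma), and CSRP3, at 3213, 3226 and 3309 FPKM against 146, 325 and 627, fell by 3.39 (SE 0.565, adjusted p = 0.0328). The difference between the 2 changes, 0.78 (adjusted p = 0.204, limma), was not called. Without the 1 added to FPKM it was -0.65 (adjusted p = 0.382, limma). The mirrored locus as-ANKRD2, on chromosome 26 from 18762478 to 18771297, minus strand, had 4.95, 3.17 and 4.53 FPKM in Shandong black cattle and was not assembled in any Luxi animal. It fell by 2.37 (SE 0.182, adjusted p = 0.00459, limma), and ANKRD2 fell by 4.74 (SE 0.632, adjusted p = 0.0198), with 811, 586 and 757 FPKM against 10.9, 19.9 and 74.2. As every Luxi value of the locus was 0, its SE holds no spread among Luxi animals. TNNI1, CSRP3 and ANKRD2 were the only sense genes of called loci that were themselves called, and all 3 were lower in Luxi cattle. Of all features tested, 0.961% were called lower. Called or not, the sense gene had a fold change below 0 at 16 of the 17 called loci. All 17 were called as lower and no share over the other tested loci is given, so this count describes these loci only. The locus opposite ANKRD1 had 3.61, 1.38 and 2.34 FPKM against 0, 0.492 and 0.273 (log2 fold change -1.42, SE 0.275, adjusted p = 0.0466, limma). ANKRD1 itself had 1698, 241 and 1106 FPKM against 31.6, 65.4 and 135. Its change of -3.53 (SE 0.805, adjusted p = 0.0694, limma) was not called. It was larger than that of the locus on the log2(FPKM + 1) scale, which understates the change of low values. The difference of 2.11 (adjusted p = 0.0929, limma) was not called.

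ACTN2 encodes alpha-actinin, which cross-links the thin filaments in the Z-disc. The mirrored locus as-ACTN2, with up to 21 exons on chromosome 28 from 9324770 to 9404160, minus strand, had 4.32, 3.99 and 3.23 FPKM in Shandong black and 1.71, 0.788 and 0.791 in Luxi cattle. It fell by 1.23 (SE 0.217, adjusted p = 0.0367, limma), while ACTN2, at 434, 333 and 393 FPKM against 160, 470 and 413, overlapped between the breeds. The difference between the 2 changes, -0.94 (SE 0.580, adjusted p = 0.300, limma), was not called. With library ratios divided out, as-ACTN2 was not called (-0.79, adjusted p = 0.114, limma). MYL12A, a regulatory light chain of non-muscle myosin, faced a mixed locus of 2.42, 2.39 and 1.33 FPKM against 0.440, 0.165 and 0.537 (log2 fold change -1.13, SE 0.214, adjusted p = 0.0428, limma), which also overlapped MYL12B. MYL12A itself had 1408, 1008 and 1083 FPKM against 192, 116 and 490. Its change of -2.37 (SE 0.550, adjusted p = 0.0721, limma) was not called. On the log2(FPKM + 1) scale it was larger than that of the locus, with a difference of 1.24 (adjusted p = 0.149, limma). Without the 1 added to FPKM the difference was -0.16 (adjusted p = 0.828, limma).

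Small heat shock proteins, chaperones that protect filaments in muscle, faced 3 of the called loci, all mirrored. The locus as-HSPB1, on chromosome 25 from 34345428 to 34347009, minus strand, had 31.4, 24.7 and 25.1 FPKM in Shandong black and 3.12, 9.94 and 8.29 in Luxi cattle, and fell by 1.9 (SE 0.370, adjusted p = 0.0474, limma). The locus as-HSPB7 had 4.78, 2.89 and 3.50 FPKM against 0.464, 0 and 0.598, and fell by 1.81 (SE 0.241, adjusted p = 0.0198, limma). The locus as-CRYAB, opposite alpha-B crystallin, had 4.26, 3.32 and 4.06 FPKM against 0.248, 0.284 and 0.902, and fell by 1.75 (SE 0.212, adjusted p = 0.0168, limma). No Luxi animal reached the lowest Shandong black animal at any of the 3 loci. The sense genes changed by -1.06 (HSPB1), -0.38 (HSPB7) and -2.43 (CRYAB) and were not called. HSPB1 and CRYAB were also lower in every Luxi animal than in any Shandong black animal, while HSPB7 overlapped. The differences between the 2 changes, -0.84, -1.43 and 0.68 in the same order, were not called (adjusted p = 0.122, 0.0767 and 0.254, limma). Without the 1 added to FPKM, the difference at CRYAB turned to -0.84 (adjusted p = 0.168, limma). At HSPB1 it was then -1.02 (adjusted p = 0.122, limma), and at HSPB7, with a value of 0, it could not be tested. With library ratios divided out, as-HSPB1 was not called (-1.28, adjusted p = 0.149, limma), while as-HSPB7 and as-CRYAB were.

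Opposite 2 ribosomal protein genes, RPS12 and RPS26, the loci were also lower in Luxi cattle while the genes were not called. The mirrored locus as-RPS12, on chromosome 9 from 70976885 to 70980336, minus strand, had 7.02, 6.93 and 6.35 FPKM in Shandong black and 1.49, 1.34 and 2.59 in Luxi cattle, and fell by 1.49 (SE 0.207, adjusted p = 0.0201, limma), whereas RPS12 had 145, 184 and 163 FPKM against 187, 132 and 199. The mixed locus as-RPS26 had 7.63, 8.39 and 10.8 FPKM against 2.15, 3.56 and 3.29 (log2 fold change -1.32, SE 0.219, adjusted p = 0.0325, limma). RPS26 itself was also lower in every Luxi animal, at 109, 95.5 and 101 FPKM against 79.3, 66.3 and 89.6. The difference between the 2 changes, -0.93 (SE 0.296, adjusted p = 0.0995, limma), was not called. With library ratios divided out, neither as-RPS12 (-0.98, adjusted p = 0.0654, limma) nor as-RPS26 (-0.75, adjusted p = 0.145, limma) was called. The 2 smallest called changes were those of as-VGLL2.1, opposite a cofactor of TEAD transcription factors in muscle (-1.05, SE 0.161, adjusted p = 0.0259, limma), and of as-PPP1R27, opposite a regulatory subunit of protein phosphatase 1 (-1.0, SE 0.161, adjusted p = 0.0299, limma). Both were lower in each Luxi animal than in any Shandong black animal.

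The locus opposite BDH1, an enzyme of ketone body metabolism, had introns of its own at 5 of 7 sites, 3 of them repeated between animals, and ran head to head with the gene. It lay on chromosome 1 from 71987804 to 72002168, plus strand, and had 2.60, 3.32 and 4.01 FPKM in B1, B2 and B3, with nothing assembled in L1, L2 and L3. It fell by 2.1 (SE 0.174, adjusted p = 0.00459, limma), and with every Luxi value at 0 this SE holds no spread among Luxi animals. BDH1 did not separate the breeds, with 16.2, 5.31 and 15.1 FPKM against 15.4, 0.458 and 12.5, and the difference between the 2 changes was -1.28 (SE 0.955, adjusted p = 0.381). The remaining called locus, a mixed one, was spliced mostly at introns of its own beside a gene not analysed here and is not described further.

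**Figure D3:**
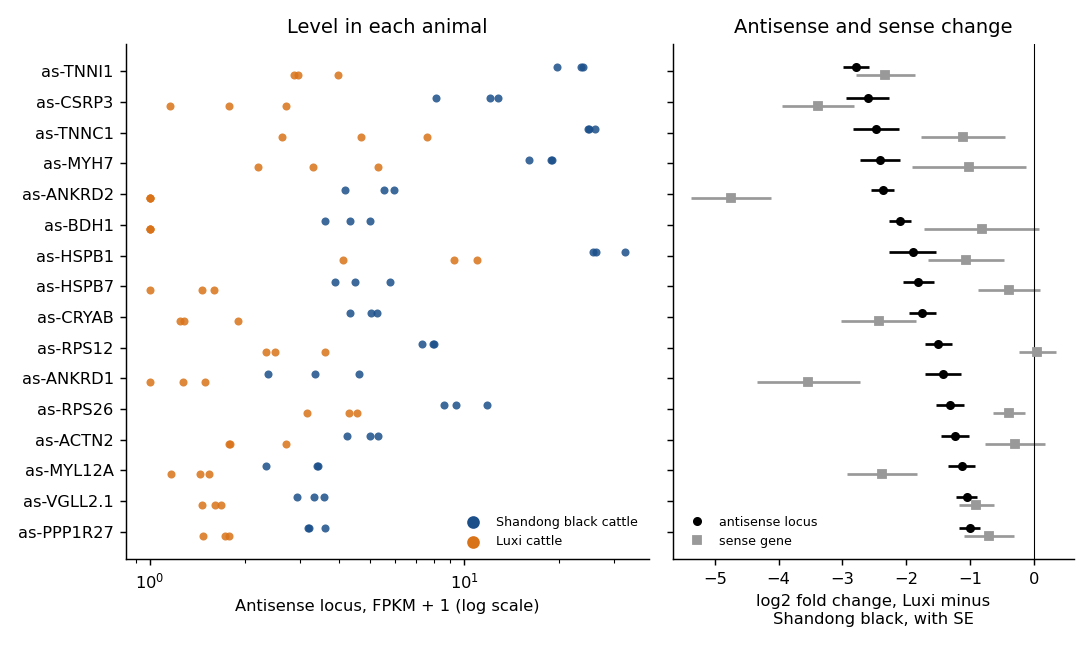
Left, FPKM + 1 (log scale) of 16 of the 17 called loci in each animal, with Shandong black cattle in blue and Luxi cattle in orange. Right, the log2 fold change (Luxi minus Shandong black) with its SE for the locus (black circle) and for its sense gene (grey square). All loci lie left of 0, from -2.79 to -1.0, whereas the sense genes run from -4.74 to 0.06.

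Whether antisense and sense changed by different amounts was tested for the 376 loci with a second limma fit, on the difference of the 2 log2(FPKM + 1) values. The median difference was -0.40, with 250 of 376 below 0, so the antisense locus tended to lie lower relative to its gene in Luxi cattle. In this fit 6 loci were called, which is 1.60% of those tested, all of them mirrored. The calls rested on the pseudocount. None was made with a pseudocount of 0.1, where 101 loci had an unadjusted p under 0.05, and none among the 289 loci that could be tested with no pseudocount, where 81 had. Removing each library's median ratio as well moved the median from -0.65 to 0.03 and gave 39 loci with an unadjusted p under 0.05. That ratio was taken from mirrored loci found in all 6 animals, so the move of the median towards 0 was built into the step. Without L1 the number of calls was 40, and without any other single animal it was 0 to 2.

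On the scale of log2(FPKM + 1), the antisense locus changed less than its gene at ACTC1 and MUSTN1. ACTC1 encodes the cardiac actin that is also made in young or regenerating skeletal fibres, and had 946, 278 and 735 FPKM in Shandong black and 5.53, 7.62 and 26.7 in Luxi cattle. Its locus had 4.10, 1.25 and 3.18 FPKM against 0, 0 and 0.625, so it passed the limit of the test through Shandong black cattle. The pseudocount limits how far such values can fall, so beside a change of -5.64 in ACTC1 the difference had to be positive. It was 4.01 (SE 0.405, adjusted p = 0.00882, limma). With a pseudocount of 0.1 it was 2.0 and not called (adjusted p = 0.0936, limma), and with no pseudocount it could not be tested. MUSTN1, a small protein linked to muscle regeneration, had 145, 283 and 261 FPKM against 35.5, 33.1 and 19.7, and its locus 0.991, 1.79 and 2.14 against 0.405, 0.374 and 0.383. The difference was 2.01 (SE 0.311, adjusted p = 0.0380, limma), and 0.94 (adjusted p = 0.179) with no pseudocount.

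The difference was negative, with the antisense locus lower relative to its gene in Luxi cattle, at PDK4, COL15A1 and RPS12, among others. PDK4, the kinase that shuts off pyruvate dehydrogenase in fasting, had 139, 419 and 217 FPKM in Shandong black and 539, 752 and 738 in Luxi cattle, and its locus 1.22, 4.87 and 3.18 against 1.57, 3.0 and 1.36. The difference of -1.91 (SE 0.305, adjusted p = 0.0380, limma) turned to 0.94 when the sense level was taken from reference transcripts alone, so its direction depends on how transcripts are assigned to the gene. COL15A1, a basement membrane collagen, rose from 7.91, 7.17 and 7.56 to 38.9, 27.6 and 30.4 FPKM (log2 fold change 1.95, SE 0.206, adjusted p = 0.00985), while as-COL15A1.1 had 0.512, 0.665 and 0.237 against 0.390, 0.596 and 0.837 FPKM. The difference there was -1.82 (SE 0.295, adjusted p = 0.0380, limma). At RPS12 it was -1.55 (SE 0.255, adjusted p = 0.0380, limma).

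**Figure D4:**
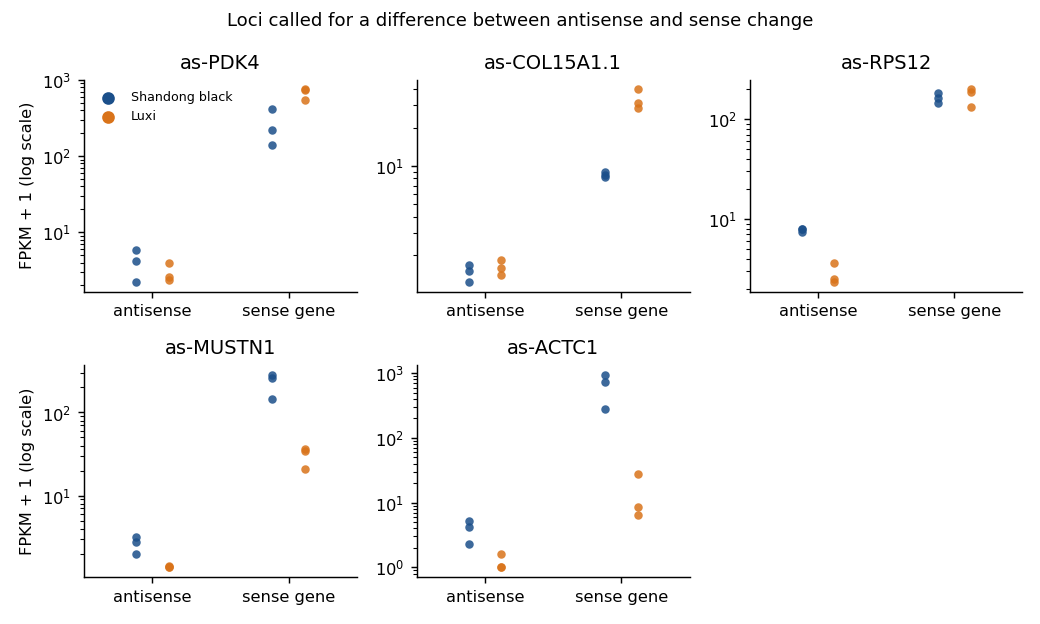
FPKM + 1 (log scale) of the antisense locus and of the sense gene in each animal at 5 of the 6 loci called for a difference between the 2 changes, with Shandong black cattle in blue and Luxi cattle in orange. At as-ACTC1 and as-MUSTN1 the sense gene separates the breeds by more than the locus does, and at as-RPS12 the locus separates them where the gene does not.

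The lists of muscle genes were chosen with earlier results of these data known, and their loci are given as counts. Of 71 sarcomere and Z-disc genes in the files, 63 faced a locus, 78 loci in all, of which 57 were mirrored, 19 mixed and 2 had introns of their own. Of the 58 tested, 7 (12.1%) were called lower and none higher, against 4.52% of all loci tested, and their median log2 fold change was -0.31, beside -0.19 over all loci tested. The genes of this list had a median of -0.26, with 6 called lower and 1 higher of 68 tested (10.3%), against 2.18% of all features. Loci opposite 2 fast troponin genes had higher means in Luxi cattle without passing the test. The locus opposite TNNT3, the fast troponin T, had 0.973, 4.98 and 3.88 FPKM in Shandong black and 3.64, 17.5 and 19.1 in Luxi cattle (log2 fold change 1.63, SE 0.635, adjusted p = 0.207, limma), with B2 and B3 above L1. The locus opposite TNNI2, the fast troponin I, had 2.52, 8.82 and 4.79 FPKM against 3.24, 18.8 and 17.5 (0.98, SE 0.635, adjusted p = 0.422, limma).

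Genes of excitation and calcium handling faced loci in 24 of 35 cases, and of the 11 loci tested none was called (median -0.04). The highest of them lay opposite RYR1, the calcium release channel, with 3.8, 4.25 and 3.94 FPKM in Shandong black and 2.52, 3.86 and 4.37 in Luxi cattle, which overlap. Energy metabolism genes faced loci in 34 of 54 cases, with 22 loci tested, none called and a median of -0.10. Opposite CKM the locus had 8.15, 18.7 and 14.9 FPKM against 3.60, 14.6 and 11.2, and opposite MB 12.6, 10.1 and 9.91 against 7.43, 5.89 and 11.7. The breeds overlap at both loci, with L1 lowest at the former and L2 at the latter.

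Fat and lipid genes, the subject of the original study, seldom faced an antisense locus above the limit of the test. Of 67 such genes, 20 had a locus and 2 loci were tested, opposite SCD, the desaturase that makes oleic acid, and SREBF1, a regulator of lipid synthesis. The locus as-SCD had 0.565, 1.36 and 1.33 FPKM in Shandong black and 0.350, 1.36 and 0.917 in Luxi cattle, and as-SREBF1 had 1.32, 0.611 and 1.77 against 0.395, 1.07 and 0.254, both overlapping and not called. Of the 63 genes of this list that were tested, 7 were called lower in Luxi cattle and none higher (11.1%), against 2.18% of all features. Matrix and adhesion genes faced 67 loci at 29 of 48 genes, of which 9 were tested and none was called (median 0.03), while 6 of the 48 genes tested were called higher in Luxi cattle and 1 lower, against 2.18% of all features. Transcription and growth genes faced loci at 28 of 64 genes, with 9 loci tested and 1 called, as-VGLL2.1 (11.1%, against 4.52% of all loci tested). Of the 60 genes tested there, 1 was called lower and 7 higher (13.3%). Genes of the pathways that the study lists faced loci at 22 of 60 genes. Of the 10 loci tested, 1 was called, as-MYL12A, beside 4.52% of all loci tested. Of the 52 genes tested there, 7 were called lower and 3 higher in Luxi cattle (19.2%), against 2.18% of all features. Opposite FOS, an early-response transcription factor, the locus as-FOS.1 had 5.91, 6.42 and 7.34 FPKM against 0.428, 2.59 and 3.23 and did not pass the test (log2 fold change -1.43, SE 0.391, adjusted p = 0.104, limma).

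Loci with introns of their own were few and mostly weak, and 29 of 209 passed the limit of 0.5 FPKM. Their introns were compared with reference transcripts only, and in 16 of the 209 every intron was also one of an assembled transcript on the other strand. Of the 29, 21 had a fold change above 0 and 8 below, and the breeds did not overlap at 6 (20.7%, against 27.4% of all features), of which 5 were higher in Luxi cattle. The highest, as-LOC112445512, lay on an unplaced scaffold and also overlapped LOC112445511 and LOC786095. Its FPKM was 0.447, 4.62 and 0.994 in Shandong black and 16.4, 10.3 and 8.96 in Luxi cattle, with every Luxi animal higher, but it missed the threshold (log2 fold change 2.31, SE 0.491, adjusted p = 0.0597, limma). Its level, summed over 25 transcripts, was above that of its sense gene, at 0 to 0.558 FPKM, in every animal. However, 3495 of its 20595 exon bases lay on the sense gene, and no intron was shared by more than 4 animals. Its span also overlapped that of LOC112445515 on its own strand.

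The HOX clusters, which hold the transcription factors that set position along the body axis, had 2 loci whose level was above that of the sense gene. The locus as-HOXA3, on chromosome 4 from 68919823 to 68928165, minus strand, had a single intron, found with the same ends in 5 animals, and 83 of its 1097 exon bases lay on HOXA3. It had 1.57, 3.38 and 0 FPKM in Shandong black and 1.16, 10.1 and 10.4 in Luxi cattle, beside 1.38, 1.14 and 1.5 and 0.438, 1.22 and 4.29 for HOXA3. L2 and L3 were high and L1 was not, and no change was called (log2 fold change 1.53, SE 0.751, adjusted p = 0.300, limma). The locus as-HOXC9, on chromosome 5 from 26032201 to 26033574, plus strand, also had 1 intron, found in all 6 animals, and all of its 948 exon bases lay on HOXC9 exons. That intron was no reference intron but was also one of an assembled transcript on the other strand. It had 0.735, 1.39 and 1.52 FPKM in Shandong black and 4.73, 7.25 and 0.213 in Luxi cattle, where HOXC9 itself was at most 0.608 in any animal. The Luxi animals held both the highest and the lowest values (log2 fold change 0.82, SE 0.647, adjusted p = 0.508, limma).

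Other loci with introns of their own stood opposite signalling and muscle genes. The locus as-WNT11, opposite a secreted WNT signal, lay head to head with it on chromosome 15 from 55624946 to 55636605, plus strand, and had 0.414, 0 and 0 FPKM in Shandong black and 1.13, 1.36 and 0.869 in Luxi cattle (log2 fold change 0.91, SE 0.200, adjusted p = 0.0640, limma). WNT11 itself was level, at 1.59 to 2.55 FPKM. Opposite MLYCD, malonyl-CoA decarboxylase, as-MLYCD.1 started 128 bases from the start of the gene on chromosome 18, from 10231308 to 10240435, minus strand, and had 0.424, 0.369 and 0 FPKM against 1.53, 0.534 and 0.265, with L1 highest. Opposite MEF2D, a transcription factor of muscle differentiation, the locus had 0.450, 0.933 and 0.636 FPKM against 0.156, 0.305 and 0.760, which overlap. Opposite MYH8, the perinatal myosin, where the single intron was likewise one of an assembled transcript on the other strand, it was assembled in L2 and L3 alone, at 3.28 and 2.18 FPKM, the libraries in which MYH8 was highest, at 415 and 349 FPKM.

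**Figure D5:**
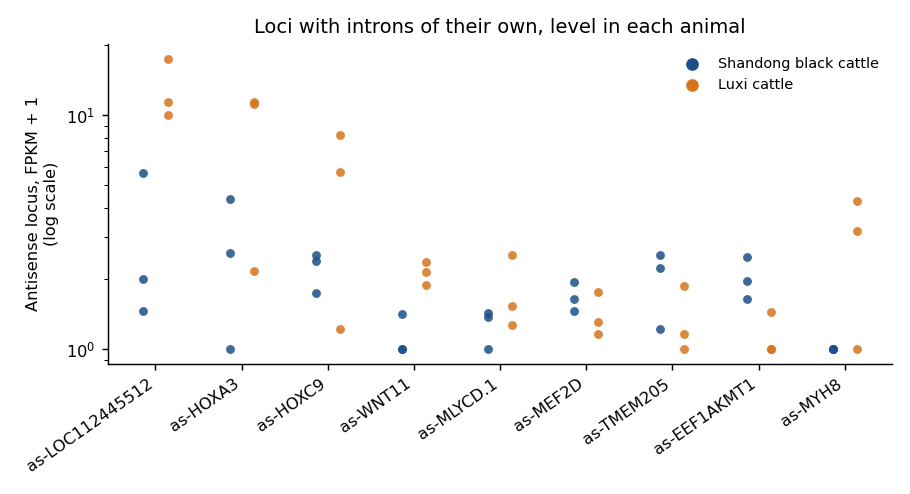
FPKM + 1 (log scale) in each animal of 9 loci none of whose introns was a reference intron of the other strand, with Shandong black cattle in blue and Luxi cattle in orange. The Luxi animals are all above the Shandong black animals at as-LOC112445512 and as-WNT11, whereas L1 lies among the Shandong black animals at as-HOXA3 and L3 lies below them at as-HOXC9.

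The 5 loci found in all animals with the largest rise in Luxi cattle among those whose breeds did not overlap were all below the threshold of the test. Besides as-LOC112445512 they included as-SLC43A2.1, opposite an amino acid transporter, with 0.764, 0.934 and 0.450 FPKM in Shandong black and 4.71, 1.31 and 2.36 in Luxi cattle. The mixed locus as-U2AF2, opposite a splicing factor and across the neighbouring CCDC106, had 1.34, 0.867 and 0.692 FPKM against 2.85, 2.11 and 3.59. The adjusted p-values of as-SLC43A2.1 and as-U2AF2 were 0.131 and 0.0633 (limma). The other two of the 5 are not described.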

How the data were processed

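The deposited files hold the coverage, FPKM and TPM of transcripts that the authors obtained for each library with StringTie, per the file headers version 1.3.3b with the setting for reverse-stranded reads, on ARS-UCD1.2 with the NCBI annotation. The Methods give another version, and the labels name a TruSeq RNA kit without saying that it keeps the strand, so how the strand was kept is not given in the sources used here. Coverage served for depth and TPM for an alternative. No counts were used, so no counting error is given.

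The FPKM of a locus was the sum of its transcripts, and that of each of 18010 genes the sum over its reference transcripts plus any assembled transcript of which 50% or more of the exon length fell on its exons and strand. A transcript without a value counted as 0. Sense genes of 98.5% of the loci were found in the ARS-UCD2.0 gene table, used for names and neighbours only. Features with a mean FPKM of at least 0.5 were tested with limma 3.58.1 (lmFit, eBayes with trend) in R 4.3.3, with Benjamini-Hochberg adjustment over 11447 features, or over 376 loci for the difference between antisense and sense. Values per library were compared by exact two-sided permutation tests. On simulated data for the 11447 features, 58.0% of 200 changed by 1.5 and 91.5% of 200 changed by 3 on the log2 scale were called, with 7 unchanged features called each time.

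The members, lists and classes were chosen with earlier results of these data known. Named were the 10 loci with the highest mean, the called ones, the 5 largest rises and falls with breeds apart, those opposite listed genes, those called for the difference from the sense gene, the 5 highest above the sense gene, and loci with introns of their own, added after their values were seen. A few of these are not reported here. Alternatives were other pseudocounts, filters, scalings, units, overlap and merging rules, a replicate block and leaving out each animal.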

Additional observations from a re-analysis of the deposited data

How the results depend on the processing

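The number of called loci, 17, was 12 to 24 under a pseudocount of 0.1, a filter by breed, median-of-ratios size factors, no trend, at least 100 bases of overlap, merging by span, loci of all 6 animals only, TPM, and library ratios divided out, and it was 4 with no filter on FPKM and 7 when the mirrored loci were left out, the count then covering the mixed loci and those with introns of their own. Leaving out each animal gave 3 to 21. The 6 calls for the difference between antisense and sense became 0 with a pseudocount of 0.1, 126 with no filter, 14 with loci of all 6 animals only, 0 with no pseudocount and 0 with no pseudocount and the library ratio removed. Leaving out each animal gave 0 to 40, and 0 to 3 with no pseudocount. Same-numbered animals share only a number. Their deviations from the breed means correlated at 0.0778, 0.0821 and 0.0741, and a replicate block gave 13 called loci, 1 of them higher and 11 of them among the 17, and 2 called differences, 1 of them among the 6. The number of loci per library and their summed FPKM turned from -173 and -326 (Luxi minus Shandong black) to 22.7 and 37.2 when loci with an intron of a reference transcript were left out. Leaving out each animal, they stayed between -256 and -37.3 loci and between -427 and -178.5 FPKM, and the median antisense percentage differed by -0.601 to -0.452 points. The as-PDK4 difference turned to 0.94 with reference transcripts alone. The number of loci per library among those of all 6 animals is fixed by that choice and has no value. The cause of these changes was not tested, apart from the smaller number of loci or animals where an alternative leaves some out.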
